A study of Mus musculus with 6 samples.

Results

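The genes described here were 10 genes of antigen presentation by major histocompatibility complex (MHC) class I molecules, chosen by name: *H2-K1*, *H2-D1*, *B2m*, *Tap1*, *Tap2*, *Tapbp*, *Psmb8*, *Psmb9*, *Psmb10* and *Nlrc5*. They were 10 of the 27179 genes in the deposited count table, and all 10 were among the 11005 genes expressed highly enough to be tested. RNA had been sequenced from germinal center (GC) B cells sorted from mouse spleen as NP-binding, IgG1+ and CD38- cells. The genotypes were wild-type (WT) and deficient in the IL-21 receptor (*Il21r*-/-), both on the C57BL/6 background. By the study's methods the mice were irradiated Ly5.1 hosts rebuilt with bone marrow of either genotype, so that the genotype was that of the blood-forming cells and cells that survive irradiation in the host were WT in both groups. All had been immunized with the hapten NP coupled to keyhole limpet hemocyanin in alum. There was 1 library of each genotype on each of days 7, 10 and 14 after immunization, 6 in all, so that a genotype had 3 libraries but a genotype on a given day had only 1. The sort was for a surface phenotype and was not divided into light zone (LZ) and dark zone (DZ) cells. More mice than libraries were used, and for day 7 the study's text names several mice of each genotype. For all days together the study gives only a total per genotype, from independent immunizations. The number behind the libraries of days 10 and 14 and the immunization behind each library are not given in the sources used here, so p-values measure the spread between libraries.

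MHC class I molecules display short peptides from inside the cell to CD8+ T cells. The peptides are cut by proteasomes, in which the inducible subunits PSMB8, PSMB9 and PSMB10 can replace the constitutive catalytic subunits PSMB5, PSMB6 and PSMB7 to form the immunoproteasome, and are carried into the endoplasmic reticulum by the TAP1-TAP2 transporter. Tapasin, the product of *Tapbp*, bridges the transporter to the class I heavy chain, which in mice of this background is encoded by *H2-K1* and *H2-D1*, and which is stable at the cell surface only with its light chain, the beta 2 microglobulin encoded by *B2m*. NLRC5 is a transactivator that works with an enhanceosome on the promoters of these genes, and interferon gamma is a well-known inducer of the whole set. B cells express class I molecules constitutively.

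The labels were checked first. *Il21r* was at 345.8, 263 and 246.6 CPM (reads of a gene, scaled to the same total in every library) in the WT libraries of days 7, 10 and 14 and at 105.8, 127.6 and 112.7 CPM in the *Il21r*-/- libraries, so the groups did not overlap (WT over *Il21r*-/- log2 fold change 1.29 ± 0.13 SE, adjusted p = 0.00137, edgeR's quasi-likelihood test with Benjamini-Hochberg adjustment). The libraries held 21353438 to 27435124 counts. All 10 GC and pan B cell markers were detected and summed to 11700, 9650 and 10200 CPM in the WT libraries of days 7, 10 and 14 and to 13400, 10600 and 11000 CPM in the *Il21r*-/- libraries. Of this list the pan B cell genes *Cd79a* (1441, 1047 and 927.6 CPM against 1706, 1364 and 1212 CPM) and *Cd79b* and also *Fas* were higher in *Il21r*-/- on each day, while *Bcl6*, *S1pr2* and the proliferation marker *Mki67* (106.2, 302.2 and 396.3 CPM against 98.8, 262.8 and 189.5 CPM) were lower on each day. Markers of T cells, NK cells, myeloid cells, erythroid cells and stroma summed to at most 123 CPM in any library. The myeloid sums of days 7, 10 and 14 were 15.3, 8.7 and 13 CPM in WT and 20.6, 12.3 and 17.6 CPM in *Il21r*-/-. Those of stroma and endothelium, mostly *Pecam1*, were 51.8, 34.1 and 25.8 against 69.6, 59.2 and 42.2 CPM. Both were higher in *Il21r*-/- on each day, while the T cell sum, mostly *Lck*, was lower on each day and the erythroid sum went both ways. A list of 8 genes of non-GC B cells, led by *Fcer2a*, summed to 1220, 758 and 559 CPM in the WT libraries of days 7, 10 and 14 and to 1440, 1350 and 934 CPM in the *Il21r*-/- libraries. The sum was thus higher in *Il21r*-/- on every day, but *Fcer2a* carried most of the difference: without it the list summed to 823, 539 and 405 CPM in WT and to 633, 564 and 424 CPM in *Il21r*-/-. *Ccr7* and *S1pr1* were also higher in *Il21r*-/- on each day, *Ighm* was lower on each day (485.4 against 288.3 CPM on day 7), and *Cr2* and *Cd38* were lower on day 7 and higher on days 10 and 14. With or without *Fcer2a*, the sum was lower on day 14 than on day 7 in both genotypes. Plasma cell markers, mostly *Jchain*, summed to 2750 to 2930 CPM in WT and to 3020 to 3840 CPM in *Il21r*-/-, but its members *Sdc1*, at 0.7328 to 0.8537 CPM in WT and 0.3613 to 0.4953 CPM in *Il21r*-/-, and *Prdm1* went the other way. NK cell markers, among which *Ncr1* was at 0, summed to 0.447 to 1.25 and 1.65 to 1.92 CPM. The part of these lists in the results below was not tested. In bulk RNA, fewer cells of a type and less RNA per cell cannot be told apart.

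The 10 genes took 0.427 to 0.609% of all counts of a library. Per kilobase of exon, which allows levels of different genes to be set side by side, *B2m* was the most abundant (mean over the 6 libraries 1661 ± 334.5 CPM per kilobase, SD), at rank 57 of the 11005 tested genes. *Psmb8* (819.5 ± 92.14) and *Psmb9* (614.2 ± 77.7) came next, at ranks 136 and 179. The heavy chain genes *H2-K1* (520.5 ± 78.48) and *H2-D1* (468.9 ± 88.53) were at ranks 209 and 235, and their ranges over the libraries overlapped. *Psmb10* (184.1 ± 13.56) and *Tap1* (107.4 ± 19.05) followed at ranks 614 and 1039. *Tap2* (49.22 ± 7.362) and *Tapbp* (46.32 ± 7.581) were lower still, with overlapping ranges, and *Nlrc5* was the least abundant (2.084 ± 0.4899 CPM per kilobase, rank 8995). Thus the proteasome subunit and class I molecule transcripts lay above those of the transport and loading genes, and the transactivator below the other 9 genes.

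**Figure D1:**
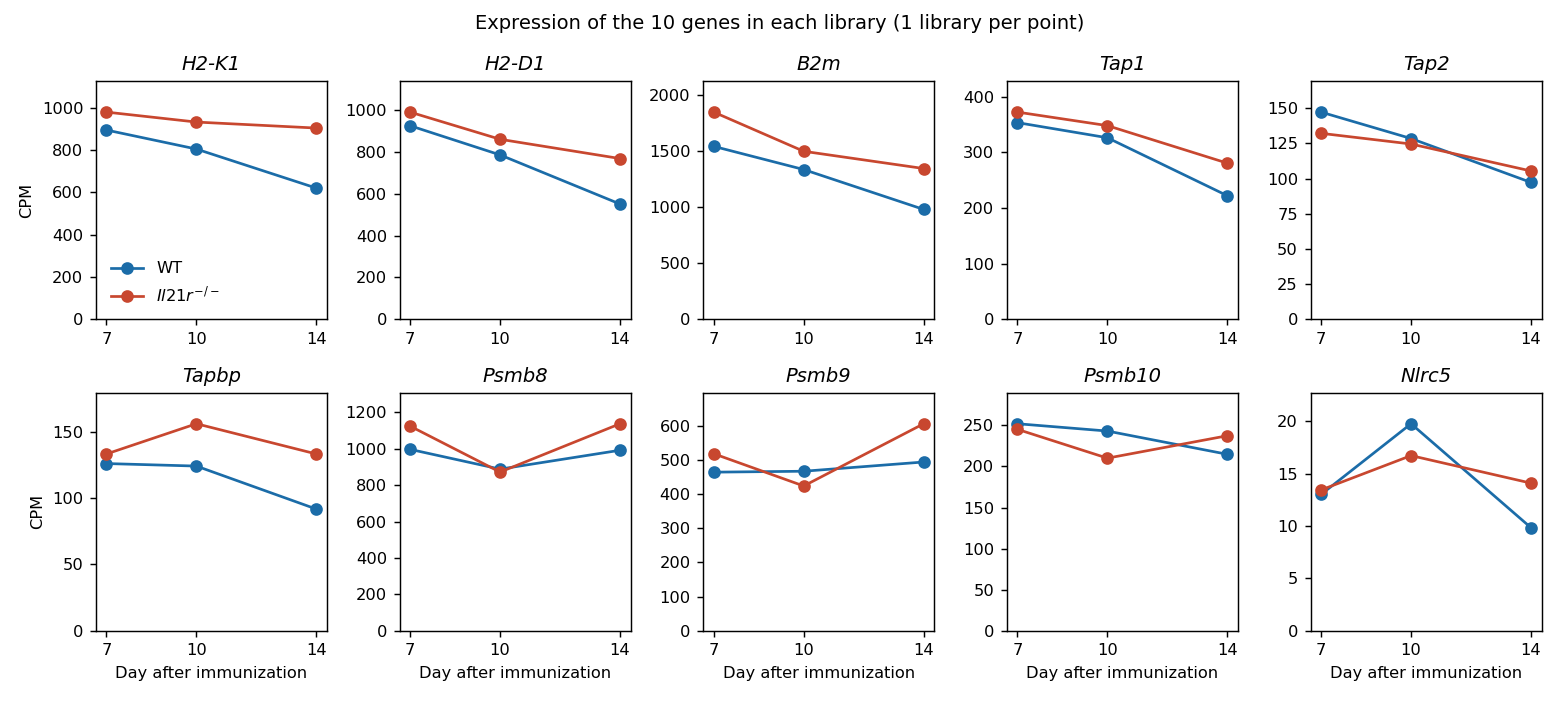
CPM of the 10 genes (vertical axes, each from 0) by day after immunization (horizontal axes) in WT and *Il21r*-/- GC B cells, with 1 point per library. *H2-K1*, at 620.5 to 895.6 CPM in WT and 904.9 to 980.5 CPM in *Il21r*-/-, and *Tapbp*, at 91.69 to 126 and 133.2 to 156 CPM, are the panels in which the genotypes do not overlap.

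Of the class I molecules, the heavy chain gene *H2-K1* (chr17:33996012-34000619, GRCm38.p6) was at 895.6, 805.5 and 620.5 CPM in the WT libraries of days 7, 10 and 14, and at 980.5, 933.3 and 904.9 CPM in the *Il21r*-/- libraries. Every *Il21r*-/- library lay above every WT library. The level in *Il21r*-/- was 109% of that in WT on day 7, 116% on day 10 and 146% on day 14. The log2 fold change of WT over *Il21r*-/- over the 3 days was -0.30 ± 0.11 SE (95% interval -0.52 to -0.07), which missed the threshold after adjustment over all genes with day as a linear term (adjusted p = 0.179, edgeR's quasi-likelihood test). With day as a factor, which pairs the libraries of a day, the estimate was the same and passed (adjusted p = 0.00771), but not without day 14 (0.312).

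*H2-D1* (chr17:35263094-35267497), which encodes the other heavy chain, was at 926, 786.2 and 551 CPM in WT and at 991.1, 861 and 768.7 CPM in *Il21r*-/-. It was higher in *Il21r*-/- on each day, but the groups overlapped, since the WT library of day 7 lay above the *Il21r*-/- libraries of days 10 and 14. The light chain gene *B2m* (chr2:122147687-122153082) was at 1543, 1336 and 979.8 CPM in WT and at 1849, 1499 and 1345 CPM in *Il21r*-/-. It too was higher in *Il21r*-/- on each day, with overlapping groups, and for both genes the WT library of day 14 was the lowest of the 6. The log2 fold changes over the 3 days were -0.24 ± 0.11 SE for *H2-D1* (adjusted p = 0.27, edgeR's quasi-likelihood test) and -0.29 ± 0.11 SE for *B2m* (adjusted p = 0.166). With day as a factor both passed, with adjusted p of 0.0309 and 0.00531, but without day 14 neither did (0.54 and 0.186). The ratio of *H2-K1* to *H2-D1* per length was 1.02, 1.08 and 1.19 in WT and 1.04, 1.14 and 1.24 in *Il21r*-/- on days 7, 10 and 14, so that it was larger on day 14 than on day 7 in both genotypes. The genes have close relatives in the same region, and how reads that map to several genes were counted is not given in the sources used here, so the split of reads between *H2-K1*, *H2-D1* and the *H2-Q* genes is uncertain. *B2m* overlaps *Patl2*, and whether the counting used strand is not given either.

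The promoters of the 3 class I molecule genes are shown because the levels of these genes moved together over the libraries, and that of *Tap1* because it lies between *Tap1* and *Psmb9*, whose courses differed. The sequences are from RefSeq's GRCm38.p6 annotation, run 5′ to 3′ on the strand of the gene and reach from 250 bases before to 50 bases after the transcription start: chr17:34000298-34000597 on the minus strand for *H2-K1*, of whose 2 annotated starts the first listed was used, and on the plus strand chr17:35262844-35263143 for *H2-D1*, chr2:122147437-122147736 for *B2m* and chr17:34187306-34187605 for *Tap1*. Capitals mark matches on either strand to CCAAT, the core of the Y box, TGACG, the core of the X2 box, GGNNNTTCC, a core bound by NF-kB, TTTCNNTTT and the shorter TTTCNNTT contained in it, cores of interferon response elements, and TTCNNNGAA, bound by STAT factors.
H2-K1: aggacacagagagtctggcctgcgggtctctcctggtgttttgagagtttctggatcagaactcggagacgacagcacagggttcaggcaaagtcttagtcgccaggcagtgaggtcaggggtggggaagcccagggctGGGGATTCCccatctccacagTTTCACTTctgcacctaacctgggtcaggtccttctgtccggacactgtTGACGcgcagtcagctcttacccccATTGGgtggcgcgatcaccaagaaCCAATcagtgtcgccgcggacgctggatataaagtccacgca
H2-D1: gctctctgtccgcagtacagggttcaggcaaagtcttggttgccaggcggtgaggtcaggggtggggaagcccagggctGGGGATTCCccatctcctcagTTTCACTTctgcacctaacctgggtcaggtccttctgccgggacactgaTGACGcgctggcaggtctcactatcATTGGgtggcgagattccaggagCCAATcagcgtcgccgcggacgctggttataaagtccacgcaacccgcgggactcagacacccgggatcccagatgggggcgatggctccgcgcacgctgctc
B2m: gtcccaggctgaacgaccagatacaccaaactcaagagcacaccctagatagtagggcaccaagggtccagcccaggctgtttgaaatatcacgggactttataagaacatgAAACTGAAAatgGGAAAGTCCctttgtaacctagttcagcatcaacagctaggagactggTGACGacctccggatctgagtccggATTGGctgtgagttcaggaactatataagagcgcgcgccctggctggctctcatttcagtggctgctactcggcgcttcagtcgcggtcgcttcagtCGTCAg
Tap1: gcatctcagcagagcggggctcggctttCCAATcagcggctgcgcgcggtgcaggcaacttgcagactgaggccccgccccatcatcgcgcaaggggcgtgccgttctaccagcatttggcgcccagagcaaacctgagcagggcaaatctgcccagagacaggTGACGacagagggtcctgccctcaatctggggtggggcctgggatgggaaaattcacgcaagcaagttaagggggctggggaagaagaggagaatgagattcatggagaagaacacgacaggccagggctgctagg
The *H2-K1* and *H2-D1* windows were identical at 211 of 239 aligned bases (88.3%), and the *Tap1* window shared 275 of its bases with the window of *Psmb9*, which is transcribed in the other direction. Windows were found for 8 of the 10 genes, *Tap2* and *Nlrc5* having none in the table. CCAAT stood in 6 of the 8 windows and in 37.4% of all 32851 promoters of the same length, and TGACG in 5 of the 8 and in 20.8% of all. These windows are not independent. For both motifs the match in *Tap1* and that in *Psmb9* are the same bases, and the *H2-K1* and *H2-D1* windows are alike. GGNNNTTCC was in the windows of *H2-K1*, *H2-D1* and *B2m* and in 18.5% of all promoters, TTTCNNTTT among the 8 in that of *B2m* alone and in 10.6% of all, and TTCNNNGAA among the 8 in that of *Psmb8* alone and in 8.3% of all. In *H2-K1*, *H2-D1* and *B2m*, TGACG was followed after 20 bases by ATTGG, the reverse complement of CCAAT, and TTTCNNTT was present (23.9% of all promoters). The spaced pair stood in 31 of the 32851 promoters (0.0944%), of 27 genes, among them also *H2-M3*. The pair and TTTCNNTT were chosen after the sequences were seen. A match describes letters in a window, not a bound site, and none of these motifs stood in the window of *Psmb10*.

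Of the transport and loading genes, *Tap1* (chr17:34187556-34197225), a subunit of the peptide transporter, was at 353.2, 326 and 221.8 CPM in the WT libraries of days 7, 10 and 14 and at 372.1, 347.8 and 280.3 CPM in the *Il21r*-/- libraries. In *Il21r*-/- it was at 105, 107 and 126% of the WT level, with overlapping groups, and its log2 fold change over the 3 days was -0.17 ± 0.10 SE (95% interval -0.37 to 0.04, adjusted p = 0.404, edgeR's quasi-likelihood test). *Tap2* (chr17:34204479-34216321), its partner subunit, was at 147.3, 128.5 and 97.26 CPM in WT and at 132.2, 124.6 and 105.4 CPM in *Il21r*-/-. Here the *Il21r*-/- library was the lower on days 7 and 10 and the higher on day 14, and the log2 fold change was 0.03 ± 0.096 SE (95% interval -0.16 to 0.22). The ratio of *Tap1* to *Tap2* per length was 2.02, 2.14 and 1.92 in WT and 2.38, 2.36 and 2.25 in *Il21r*-/-, so every *Il21r*-/- library had relatively more *Tap1*. The means were 2.03 ± 0.109 and 2.33 ± 0.0702 (SD, n = 3 each), and an exact two-sided permutation test gave p = 0.1, the smallest that 3 libraries against 3 allow.

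*Tapbp* (chr17:33919478-33929290), the tapasin gene, was at 126, 124.1 and 91.69 CPM in WT and at 133.2, 156 and 133.2 CPM in *Il21r*-/-. As for *H2-K1*, the groups did not overlap. The level in *Il21r*-/- was 106% of that in WT on day 7, 126% on day 10 and 145% on day 14, and the log2 fold change over the 3 days was -0.32 ± 0.12 SE (adjusted p = 0.186, edgeR's quasi-likelihood test). It passed with day as a factor (adjusted p = 0.00832), but not without day 14 (0.308). The non-coding *Gm19412* overlaps *Tapbp*.

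The other components of peptide loading and trimming were counted from a fixed list of 11 genes, among them the chaperones *Calr*, *Canx* and *Pdia3* and the trimming peptidase *Erap1*. All 11 were tested and 0 differed between the genotypes over the 3 days or with day by edgeR's quasi-likelihood test, where 5.92 and 4.43% of all genes did. At an unadjusted p under 0.05 there were 0 and 3 of the 11, against 21.4 and 23.5% of all genes. Their median log2 fold change of WT over *Il21r*-/- was -0.0283, against -0.00975 over all genes tested. With day as a factor, *Calr* was higher in *Il21r*-/- (-0.21, adjusted p = 0.0353), as were 13.6% of all genes.

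The immunoproteasome subunits followed another order of libraries. *Psmb8* (chr17:34198195-34201454) was at 997.2, 888.5 and 992.3 CPM in the WT libraries of days 7, 10 and 14 and at 1125, 872.3 and 1138 CPM in the *Il21r*-/- libraries. It was higher in *Il21r*-/- on days 7 and 14 and close to level on day 10 (98.2% of WT). *Psmb9* (chr17:34182030-34187330) was at 463.8, 466.5 and 493.5 CPM in WT and at 517.7, 423.4 and 605.4 CPM in *Il21r*-/-. *Psmb10* (chr8:105935728-105938392) was at 252, 243.1 and 214.8 CPM in WT and at 245.2, 210.1 and 237.4 CPM in *Il21r*-/-. For all 3 subunits the groups overlapped and the *Il21r*-/- library of day 10 was the lowest of the 6, whereas 7 of the 10 genes, the remaining ones, were lowest in the WT library of day 14. The *Il21r*-/- library of day 10 was also the lowest for the constitutive core proteasome genes described below, with the exception of *Psmb1*. The log2 fold changes over the 3 days were -0.12 ± 0.13 SE for *Psmb8* (95% interval -0.38 to 0.14), -0.12 ± 0.13 SE for *Psmb9* (-0.36 to 0.13) and 0.03 ± 0.10 SE for *Psmb10* (-0.17 to 0.23), with adjusted p of 0.649, 0.657 and 0.891 by edgeR's quasi-likelihood test.

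Each inducible subunit was set against the constitutive subunit that it replaces, per length. *Psmb8* exceeded *Psmb5* by 4.23, 3.8 and 3.9 times in WT and by 4.94, 4.5 and 4.21 times in *Il21r*-/- on days 7, 10 and 14, so the ratio was higher in *Il21r*-/- on each day (means 3.97 ± 0.228 and 4.55 ± 0.365, SD, n = 3 each, exact two-sided permutation p = 0.2). The ratio of *Psmb9* to *Psmb6* was 2.38, 2.27 and 1.86 in WT and 2.6, 2.33 and 2.19 in *Il21r*-/- (exact permutation p = 0.5), and was also higher in *Il21r*-/- on each day. These permutation tests did not pair the libraries of a day. *Psmb10* stayed below *Psmb7* in every library, with ratios of 0.49, 0.44 and 0.344 in WT and 0.454, 0.457 and 0.368 in *Il21r*-/- (exact permutation p = 1). The groups overlapped for all 3 ratios, and each ratio was lower on day 14 than on day 7 in both genotypes. Of the 14 genes of the constitutive core proteasome, 0 passed the test for genotype (0 at an unadjusted p under 0.05; median log2 fold change 0.0299) or for day by edgeR's quasi-likelihood test, where 5.92 and 4.43% of all genes passed. All 14 had positive slopes with day, of 0.0199 to 0.0793 log2 per day, while 49.5% of all genes had negative slopes. Of the 14, 5 had an unadjusted p under 0.05 for day, as had 23.5% of all genes.

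**Figure D2:**
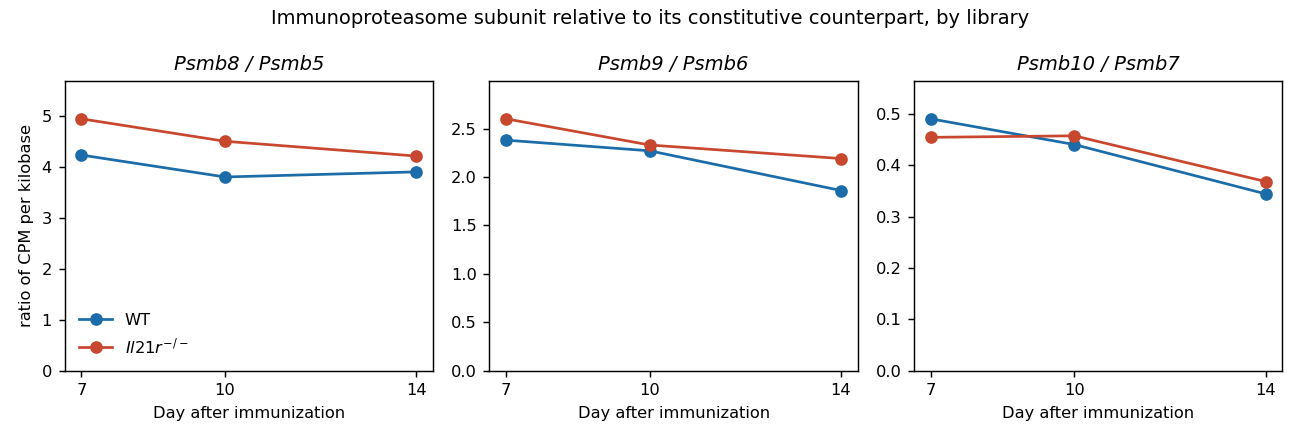
Ratio of each immunoproteasome subunit to the constitutive subunit it replaces, in counts per exon length (vertical axes, from 0), by day after immunization in WT and *Il21r*-/-, with 1 point per library. *Psmb8* over *Psmb5* lies between 3.8 and 4.94, and *Psmb10* over *Psmb7* between 0.344 and 0.49.

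*Nlrc5* (chr8:94434335-94527272), the transactivator, was at 13.01, 19.76 and 9.834 CPM in the WT libraries of days 7, 10 and 14 and at 13.44, 16.72 and 14.09 CPM in the *Il21r*-/- libraries. Both genotypes were highest on day 10, and the groups overlapped. The log2 fold change over the 3 days was -0.06 ± 0.23 SE (95% interval -0.52 to 0.39, adjusted p = 0.909, edgeR's quasi-likelihood test), the widest interval among the 10 genes. *Nlrc5* overlaps *9330175E14Rik*, *Gm51584* and *Mir7072*, so some of its few reads may belong to them.

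A fixed list of 21 genes held other regulators of class I genes. By edgeR's quasi-likelihood test over the 3 days, *Prdm1*, a repressor that drives plasma cell differentiation, was higher in WT (log2 fold change 1.64 ± 0.33 SE, adjusted p = 0.0216), at 1.392, 1.829 and 1.592 CPM against 0.2618, 0.6096 and 0.6825 CPM in *Il21r*-/-. *Ifngr2*, the signalling chain of the interferon gamma receptor, was higher in *Il21r*-/-, at 41.07, 37.75 and 30.15 CPM on days 7, 10 and 14 against 25.98, 17.89 and 14.38 CPM in WT (-0.93 ± 0.12 SE, adjusted p = 0.00427). Neither gene's groups overlapped. *Ifnar2*, a chain of the type I interferon receptor, fell with day by 0.15 log2 per day (adjusted p = 0.0215). The list's median was 0.0287. *Irf1*, a factor induced by interferon that acts on these promoters, was at 45.4, 58.62 and 40.04 CPM in WT and at 30.55, 30.25 and 40.63 CPM in *Il21r*-/-, and did not pass (0.52 log2, adjusted p = 0.129). With day as a factor, a fit that pairs the libraries of a day and in which 22.9% of all genes passed, 7 of the 21 did: *Stat3*, *Ezh2* and *Prdm1* were higher in WT, and *Ifngr2*, *Ifnar2*, *Rfxank* and *Ciita*, the MHC class II transactivator (-0.39, adjusted p = 0.000534), were higher in *Il21r*-/-.

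Over the 3 days together, 0 of the 10 genes passed the threshold of an adjusted p of 0.05 for genotype by edgeR's quasi-likelihood test with day as a linear term, where 5.92% of all genes tested did (4.52% as higher in *Il21r*-/-). At an unadjusted p under 0.05 there were 3, *H2-K1*, *B2m* and *Tapbp*, against 21.4% of all genes. DESeq2 called 0 of the 10 and 951 of all 11005 genes. The log2 fold change of WT over *Il21r*-/- was negative for 8 of the 10 genes and for 51.8% of all genes, and the median was -0.145 against -0.00975. The members that were higher in *Il21r*-/- on all 3 days were *H2-K1*, *H2-D1*, *B2m*, *Tap1* and *Tapbp*, 5 of 10, as were 27.9% of all genes. Groups did not overlap, with *Il21r*-/- higher, for 2 of the 10 and for 10.0% of all genes and with WT higher for 0 of the 10 and 8.33% of all genes.

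When day was instead fitted as a factor, which pairs the libraries of a day, the estimates were alike but the spread was smaller. This left only 2 residual degrees of freedom, against 3 with the linear day term. Of the 10 genes, 4 were higher in *Il21r*-/-, against 22.9% of all genes called and 13.6% called as higher in *Il21r*-/-. In this fit *H2-K1* was at -0.30 ± 0.080 SE, *B2m* at -0.29 ± 0.077 SE, *Tapbp* at -0.32 ± 0.087 SE and *H2-D1* at -0.24 ± 0.080 SE. *Tap1* was at -0.17 (adjusted p = 0.115), *Psmb8* and *Psmb9* had adjusted p of 0.293 and 0.381, and *Tap2*, *Psmb10* and *Nlrc5* of 0.839, 0.797 and 0.672. The number of calls moved with the days that entered the fit, for all genes too. With both libraries of day 14 left out, 0 of the 10 passed in the same fit, which called 1004 of the 11005 genes, and *H2-K1* was at -0.17, *H2-D1* at -0.11, *B2m* at -0.21 and *Tapbp* at -0.21. With day 7 left out the same 4 genes passed (2137 genes in all), and with day 10 left out *H2-K1* and *B2m* did (1611 in all).

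**Figure D3:**
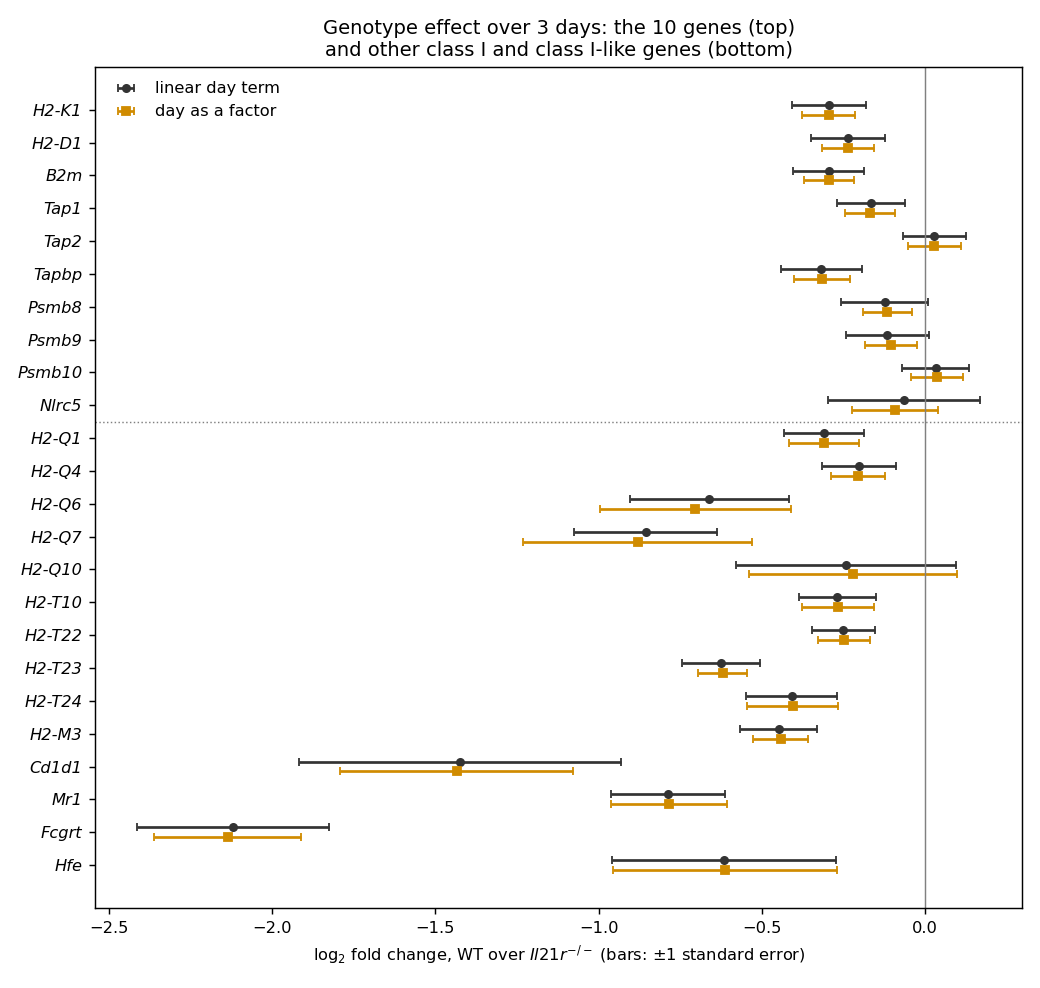
Log2 fold change of WT over *Il21r*-/- over the 3 days (horizontal axis) for the 10 genes and the other class I and class I-like heavy chain genes, from the fits with a linear day term (circles) and with day as a factor (squares), with bars for 1 SE on either side. With the linear term the 10 genes lie between -0.32 (*Tapbp*) and 0.03 (*Psmb10*), and *Fcgrt* lies farthest to the left at -2.12.

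On single days, where the spread is borrowed from all 6 libraries, edgeR's likelihood ratio test called 0 of the 10 genes on day 7 (1.07% of all genes called), 0 on day 10 (3.10%) and 0 on day 14 (3.28%), and DESeq2 also called 0 on each day. At an unadjusted p under 0.05 there were 0, 0 and 4 of the 10, against 5.51, 10.8 and 12.1% of all genes. On day 14 all 10 genes were lower in WT, with a median log2 fold change of -0.397 against -0.0115 over all genes. The 4 genes were *H2-K1* (-0.54 ± 0.22 SE, adjusted p = 0.196), *Tapbp* (-0.54, 0.32), *H2-D1* (-0.48, 0.301) and *B2m* (-0.46, 0.302). With the dispersions estimated with day as a factor, *H2-K1*, *Tapbp* and *H2-D1* passed on day 14 (adjusted p = 0.0175, 0.0236 and 0.0426), where 9.59% of all genes passed and 6.08% as higher in *Il21r*-/-, while *B2m* did not (0.0542). The WT library of day 14 also had the lowest level of the non-GC B cell markers, 559 CPM. Left out of the fit over the 3 days, it took *H2-K1* from -0.30 to -0.18, *H2-D1* from -0.24 to -0.13, *Tapbp* from -0.32 to -0.18, *B2m* from -0.29 to -0.23 and *Tap1* from -0.17 to -0.07.

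Over time, the class I molecule and transporter genes were lower on day 14 than on day 7 in both genotypes, whereas *Psmb8* and *Psmb9* were near or above their earlier levels. On day 14 the WT level was 69.3% of that on day 7 for *H2-K1*, 59.5% for *H2-D1*, 63.5% for *B2m*, 62.8% for *Tap1* and 66% for *Tap2*. In *Il21r*-/- the same shares were 92.3, 77.6, 72.7, 75.3 and 79.7%, each above that in WT. *Tapbp* was at 72.8% in WT and at 100% in *Il21r*-/-, and *Psmb8* at 99.5 and 101%, *Psmb9* at 106 and 117% and *Psmb10* at 85.3 and 96.8%. With a linear day term, 0 of the 10 genes passed (4.43% of all genes did), 5 had an unadjusted p under 0.05, as had 23.5% of all genes, and DESeq2 called 4, where it called 870 of all 11005 genes. The slopes nearest to the threshold were those of *Tap1* (-0.079 log2 per day, adjusted p = 0.051, edgeR's quasi-likelihood test), *B2m* (-0.079, 0.0546), *H2-D1* (-0.079, 0.0586) and *Tap2* (-0.067, 0.062), and the same 4 were the genes DESeq2 called.

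In the comparison of day 14 with day 7 with day as a factor, chosen after the data were seen, 5 of the 10 genes fell, where 26.2% of all genes were called and 13.6% as lower on day 14. These were *B2m* (-0.56 ± 0.094 SE, adjusted p = 6.25e-05, edgeR's quasi-likelihood test), *Tap1* (-0.54 ± 0.093 SE, 8.51e-05), *H2-D1* (-0.55 ± 0.097 SE, 0.000121), *Tap2* (-0.46 ± 0.10 SE, 0.00104) and *H2-K1* (-0.32 ± 0.098 SE, 0.017). *Psmb8* (0.0055, adjusted p = 0.971), *Psmb9* (0.16, 0.238) and *Psmb10* (-0.14, 0.326) did not pass, nor did *Tapbp* (-0.23, 0.116). Between days 7 and 10, 0 of the 10 passed and 14.4% of all genes did. *Nlrc5* (0.47, adjusted p = 0.0505), *Psmb8* (-0.27, 0.0507) and *B2m* (-0.25, 0.0673) came nearest.

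Whether the trend with day differed between the genotypes was tested by an interaction term, which leaves 2 residual degrees of freedom. No gene passed, 0 of the 10 and 0% of all genes tested, with 0 of the 10 and 1.07% of all genes at an unadjusted p under 0.05. The difference was negative, meaning a trend that was more downward in WT, for all 10 genes, between -0.074 (*Nlrc5*, 95% interval -0.24 to 0.096) and -0.0059 log2 per day (*Psmb8*, -0.11 to 0.099), and each of the 10 had an adjusted p of 1. It was negative for 52.6% of all genes.

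**Figure D4:**
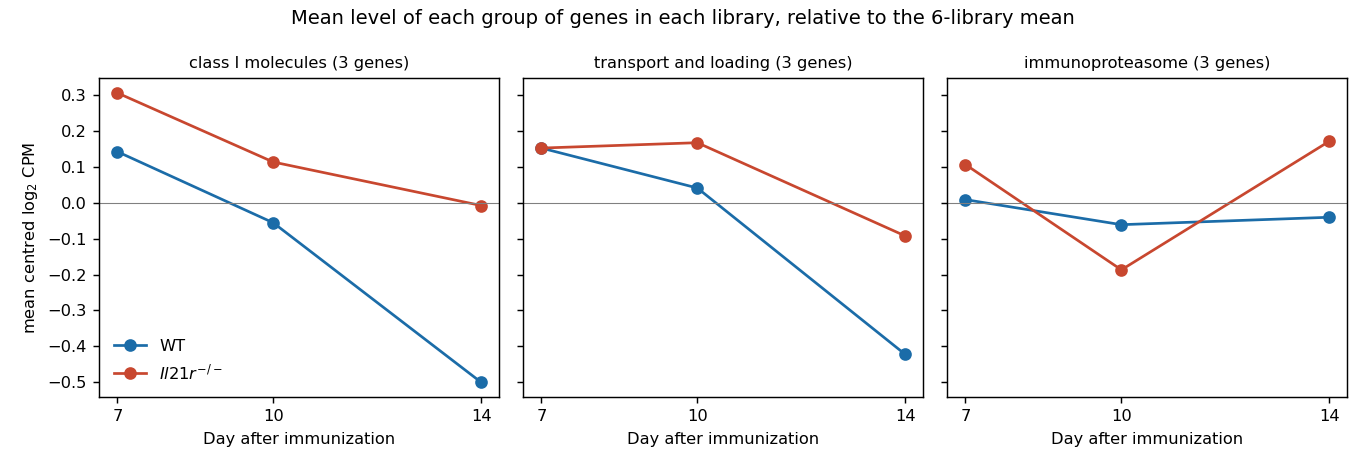
Mean centred log2 CPM (vertical axis) of the class I molecule, transport and loading, and immunoproteasome genes, 3 genes each, in the 6 libraries by genotype and day. The class I molecules range from 0.31 in the *Il21r*-/- library of day 7 to -0.50 in the WT library of day 14, while the immunoproteasome genes are lowest, at -0.19, in the *Il21r*-/- library of day 10.

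How alike the courses of the genes were is given as Pearson's r of log2 CPM over the 6 libraries, a description with no test, since libraries share a genotype or a day. Among the 6 class I molecule, transport and loading genes the 15 pairs had r between 0.537 and 0.983 with a median of 0.871, the closest being *H2-D1* and *B2m*. The immunoproteasome pairs had a median of 0.425, with *Psmb8* and *Psmb9* at 0.872. Between these groups the 18 pairs ran from -0.47 to 0.6 with a median of 0.0777. Among these pairs, those of *Psmb10* lay between 0.106 (*Tapbp*) and 0.6 (*Tap2*), and those of *Psmb9* between -0.47 and 0.0499. *Psmb10* was thus no closer to *Psmb8* (0.425) and *Psmb9* (0.325) than to several class I genes, such as *H2-D1* (0.561). Position did not separate the groups in the same way: 7 of the 10 genes lie on chromosome 17, and *Psmb9*, *Tap1*, *Psmb8* and *Tap2* follow each other within 34.3 kilobases, with 225 bases between the annotated ends of *Psmb9* and *Tap1*. Yet r was -0.34 between *Tap1* and *Psmb9* and -0.47 between *Tap2* and *Psmb9*, while *B2m*, on chromosome 2, followed *H2-D1*. *Nlrc5* was nearest to *Tapbp* (0.689) and was opposite to *Psmb8* (-0.493).

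**Figure D5:**
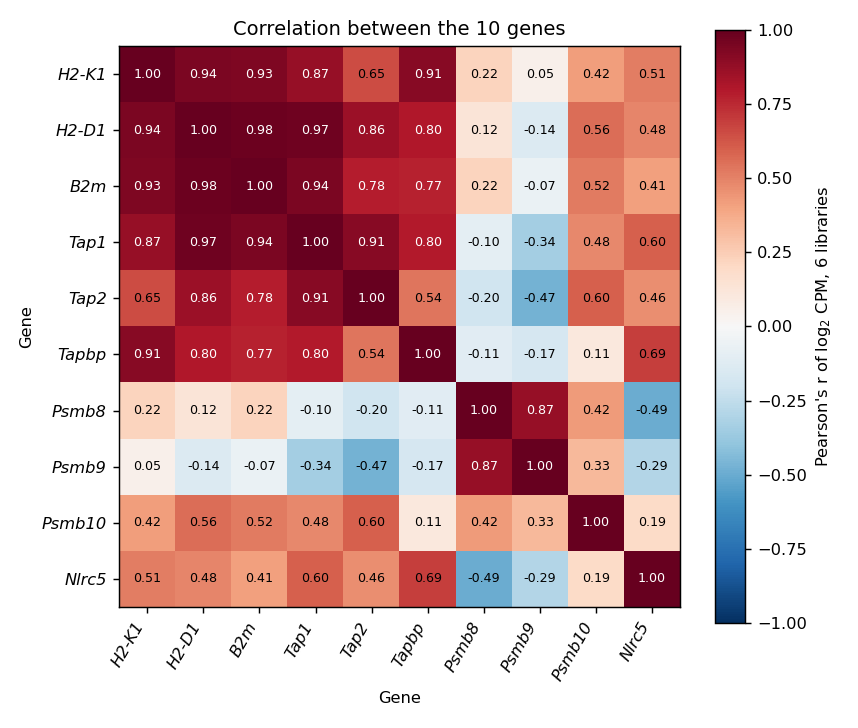
Pearson's r between the log2 CPM of each pair of the 10 genes over the 6 libraries, ordered by role. Values among the class I molecule, transport and loading genes are 0.537 to 0.983, and values between them and the immunoproteasome genes are -0.47 to 0.6.

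The other class I and class I-like heavy chain genes, a fixed list of 17, were compared to see whether they shared the course of *H2-K1* and *H2-D1*. Of these 14 were tested, *H2-Q2*, *H2-T3* and *H2-M2* being too low, and all 14 had a negative log2 fold change of WT over *Il21r*-/-, with a median of -0.532, against -0.145 for the 10 genes and -0.00975 for all genes. Of the 14, 12 were higher in *Il21r*-/- on all 3 days, as were 27.9% of all genes. By edgeR's quasi-likelihood test 3 were higher in *Il21r*-/-, where 4.52% of all genes were, and with day as a factor 8 were, where 13.6% of all genes were. *H2-T23*, which encodes the non-classical molecule Qa-1, was at 336.6, 270.3 and 252.3 CPM in WT and at 502, 381.9 and 434.1 CPM in *Il21r*-/- on days 7, 10 and 14 (-0.62 ± 0.12 SE, adjusted p = 0.0193), without overlap. *Mr1*, which presents microbial metabolites, was at 4.141, 4.025 and 2.763 CPM in WT and at 6.808, 5.981 and 5.942 CPM in *Il21r*-/- (-0.79 ± 0.18 SE, adjusted p = 0.0348). *Fcgrt*, the heavy chain of the neonatal Fc receptor, was at 3.371, 0.935 and 0.9834 CPM in WT and at 10.08, 6.896 and 4.777 CPM in *Il21r*-/- (-2.12 ± 0.29 SE, adjusted p = 0.00489). On day 14, *H2-Q7*, at 20 CPM in WT and 57.21 CPM in *Il21r*-/-, passed edgeR's likelihood ratio test (-1.52, adjusted p = 0.0101). *H2-T23* (-0.78) and *Fcgrt* (-2.27) passed it on that day too, as did 3.28% of all genes. On day 10 the log2 fold change was -0.19 for *H2-Q7* and -2.88 for *Fcgrt*, so the difference of *Fcgrt* was not particular to day 14. Over the 3 days *H2-Q7* did not pass the quasi-likelihood test (adjusted p = 0.0583, and 0.251 with day as a factor). *H2-T24* fell with day (-0.13 log2 per day, adjusted p = 0.0248, quasi-likelihood test). The genotype differences of the genes named here were larger than those of *H2-K1* (-0.30) and *H2-D1* (-0.24) over the 3 days. That did not hold for the whole list, where *H2-Q4* was at -0.20 and *H2-T22* at -0.25. The difference between the lists was not tested, and the *H2-Q* and *H2-T* genes have near-identical copies between which reads could be split.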

How the data were processed

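RNA of sorted spleen GC B cells was sequenced in 6 libraries as 100-base reads with Illumina TruSeq chemistry. The authors aligned the reads to mm10 with Rsubread and counted them on genes with featureCounts, pooling technical replicates; CASAVA 1.8.2 is named in the submitters' processing notes. The deposited values are whole-number read counts per gene, not normalized, and a deposited exon length per gene. The table of all libraries and the 6 single-library tables held the same counts. Strand and multi-mapping settings are not given in the sources used here. Symbols came from RefSeq's GRCm38.p6 annotation for 25275 of 27179 gene identifiers and from GENCODE for 18. The 1886 without a symbol stayed in the library totals.

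Counts were analysed in R 4.3.3 with edgeR 4.0.16, limma 3.58.1 and TMM scaling. Genes with an average log2 CPM of at least 0 were kept, leaving out 137 Y-linked, *Xist* and immunoglobulin variable genes, and 11005 were tested. Following the study's methods, dispersions came from a model of genotype and linear day (common biological coefficient of variation 13.1%). Genotype and day effects were tested by quasi-likelihood with 3 residual degrees of freedom and single days by likelihood ratio tests, with Benjamini-Hochberg adjustment over all 11005 genes and a threshold of 0.05. The SE and 95% intervals of a log2 fold change came from the fitted model. The libraries of a day share no stated animal or batch, but their deviations from the genotype means correlated over the 11005 genes (r = 0.64, 0.413 and 0.645 on days 7, 10 and 14), so day as a factor, which pairs them, was fitted too. Which of the study's independent immunizations each library came from is not given, so comparisons of days and this pairing may also carry a difference between immunizations. Further alternatives were DESeq2 1.42.0, other filters on low counts, scaling methods, and leaving out each library. CPM used TMM-scaled library sizes, and CPM per kilobase divided by the deposited exon length. The scripts were tested on simulated data. The genes and lists were chosen with earlier results of these data known, so no list count is independent evidence. Of the pathway lists, genes were named if called over 3 days, on a single day or with day; *Irf1* and the genes called only with day as a factor were named after their values were seen.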

Additional observations from a re-analysis of the deposited data

How the results depend on the processing

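For genotype over the 3 days, 0 of the 10 genes passed under DESeq2's size factors, both other filters on low counts and DESeq2's test, and 4 passed with day as a factor, which is the fit with the replicate block (4, 2 and 0 with day 7, 10 or 14 left out of it, where 2137, 1611 and 1004 of all genes passed). Leaving out each library gave 0 to 1, the 1 being *B2m* without the *Il21r*-/- library of day 10 (adjusted p = 0.04, edgeR's quasi-likelihood test). On day 14 the block gave 3 and the other settings 0, and on days 7 and 10 every setting gave 0. For the linear day effect there were 4 with all genes of any count, 1 (*Tap1*) with at least 10 counts in every library, 4 with DESeq2, 5 for day 14 against day 7 and 0 for day 10 against day 7 with the block, and 0 to 4 with each library left out, the 4 without the *Il21r*-/- library of day 10. The difference in day trend was refitted only under other scaling and filters. Over all genes, calls for genotype over the 3 days were 651, against 2519 with the block and 991 of 16909 without the filter. With at least 10 counts in every library they were 572 of 11137, and with each library left out 132 to 2165. For the linear day effect they were 488, against 869 without the filter and 484 of 11137 with at least 10 counts in every library. DESeq2 gave 870, and leaving out each library 0 to 2177. For days 7, 10 and 14 they were 118, 341 and 361, against 303, 822 and 1055 with the block and 32, 132 and 93 by DESeq2; keeping the linear day term gave 722 on day 10.

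No estimate of these genes had passed the threshold in the main fit, so each direction that turned was necessarily of an estimate that had not passed. Some of the turned values were not small. On day 10, where DESeq2's fit and that with the linear day term kept have no mean of their own for the day, *Psmb8* was at -0.23 in both and *Psmb9* at -0.13 in both. With each library left out, the genotype estimates ranged from -0.021 to 0.10 for *Tap2*, from -0.38 to 0.21 for *Nlrc5*, from -0.034 to 0.14 for *Psmb10* and from -0.24 to 0.028 for *Psmb9*, and the slopes per day from -0.019 to 0.025 for *Psmb8*, from -0.064 to 0.037 for *Nlrc5* and from -0.0049 to 0.043 for *Psmb9*. With the block, *Tap2* was at -0.027 without day 7, *Psmb10* at -0.048 without day 10 and *Nlrc5* at 0.10 without day 14. Day 10 against day 7 gave 0.10 for *Tapbp*, -0.27 for *Psmb8*, -0.14 for *Psmb9* and 0.47 for *Nlrc5*, against the sign of their slopes. The cause of these changes was not tested. With 1 library per genotype and day, a difference on a single day cannot be told apart from a difference between those libraries, and *Nlrc5*, at 9.834 to 19.76 CPM, was measured least precisely.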

Other observations

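The genes whose log2 CPM followed the mean course of the 10 genes most closely over the 6 libraries were *Zc3hc1*, *Mst1*, *Igtp*, *Scpep1* and *Tpst2*, with Pearson's r of 0.999, 0.99, 0.99, 0.988 and 0.988. They are the top of a ranking of all tested genes over only 6 libraries, which carries no test. *Igtp*, an interferon-inducible GTPase, was at 18.32, 16.87 and 10.96 CPM in the WT libraries of days 7, 10 and 14 and at 19.51, 17.52 and 15.74 CPM in the *Il21r*-/- libraries. *Igtp* was higher in *Il21r*-/- on each day and lowest in the WT library of day 14, as were *H2-D1*, *B2m* and *Tap1*. The ranking selects for such a shared course, so this likeness is no separate result. *Zc3hc1* moved by no more than 1.12 times between its lowest and highest library, and *Scpep1*, a serine carboxypeptidase, by 1.41 times.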
